A study of Caenorhabditis elegans with 12 samples.

Results

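The cathepsin cysteine proteases of Caenorhabditis elegans that carry the names cpr (cathepsin B-like), cpl (cathepsin L-like) and cpz (cathepsin Z-like) were examined in whole animals at the late L4 larval stage. They were chosen by name, as cpr-1 to cpr-6, cpl-1, cpz-1 and cpz-2, and 8 of these 9 genes are among the 16309 genes in the authors' deposited table. The exception is cpr-3, which the table lists under neither its symbol nor its sequence name T10H4.12, so no value is given for it. The study compared RNA of wild type with that of 3 mutants lacking members of the miR-58 microRNA family, with 3 samples per genotype and 12 in all.

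The wild type was strain N2 Bristol. The mir-58 mutant was strain MT15024, which carries the deletion allele mir-58(n4640) on chromosome IV. The double mutant, strain MT18409, carries nDf53 on chromosome III, the deletion that the labels give for mir-80, beside mir-58(n4640), and the quadruple mutant, strain MT15563, carries nDf53, mir-58(n4640) and nDf54 on chromosome X, the deletion given for mir-81 and mir-82. All animals were fed for successive generations on bacteria with light lysine and arginine and were synchronised by bleaching. Collection was at 33 h from transfer to food for wild type and mir-58, 6 h later for the double mutant and 15 h later for the quadruple mutant, because these strains develop more slowly. Genotype and hours of growth therefore change together in double and quadruple mutants and cannot be told apart. Wild type and mir-58 share the hours of growth. Whether mir-58, double or quadruple mutants had reached the same point within late L4 as wild type was not tested here. Each genotype was represented by a single strain, and the labels do not say whether its samples came from separate cultures.

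Cathepsins of the papain family are made as inactive precursors and matured by removal of a propeptide, mostly in lysosomes, where they break down proteins taken up or recycled by the cell. In C. elegans several cathepsin B-like genes are expressed in the intestine, the animal's main digestive and storage tissue. The cathepsin L gene cpl-1 is required for embryonic development and for the processing of yolk, and the cathepsin Z gene cpz-1 acts in moulting. Their activity is held in check by cystatins, small proteins that occupy the active site.

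Every value below is a log2 fold change of a mutant over wild type, or an adjusted p, from the authors' deposited table. A gene was called higher or lower where its adjusted p was under 0.05. Values of individual samples were not used here, so neither the level of a gene in each sample nor the spread between replicates can be given, and the depth behind each value is unknown. The 3 comparisons share the same wild-type samples. In whole animals, fewer cells of a type and less RNA per cell cannot be told apart.

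Of the 8 genes, 4 were called in at least 1 mutant and 4 in none. The cathepsin B-like genes cpr-1 and cpr-2 rose in double and quadruple mutants, cpz-2 fell in both, and cpr-5 fell in mir-58 mutants and in quadruple mutants. The genes cpr-4, cpr-6, cpl-1 and cpz-1 were not called in any mutant. In mir-58 none of the 8 was called higher, where 1.65% of all listed genes were, and 1 was called lower (12.5%), against 5.79% of all listed genes. In double mutants 2 of 8 were called higher (25%, against 10.5% of all listed genes) and 1 lower (12.5%, against 5.86%). In quadruple mutants 2 were called higher and 2 lower, 25% each, against 14.2% and 9.82% of all listed genes. With 8 genes a single call makes 12.5%, so these shares do not set the group apart from the background. The median of the 8 log2 fold changes was -0.28 in mir-58 mutants, -0.16 in double mutants and 0.12 in quadruple mutants, beside -0.06, 0.08 and 0.11 over all listed genes.

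**Figure D1:**
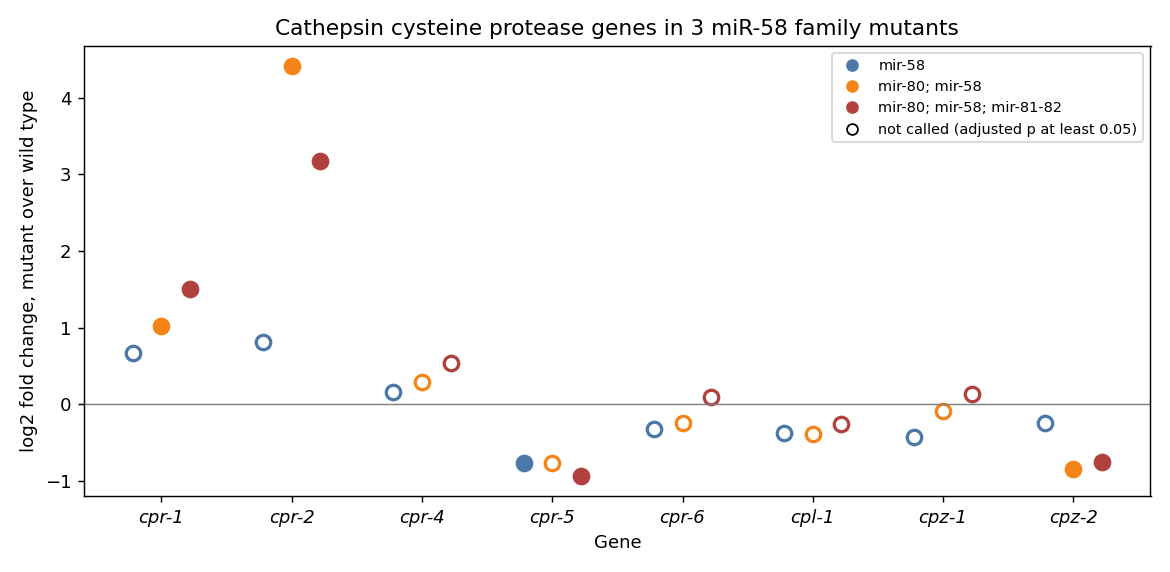
Log2 fold change over wild type (vertical axis) of the 8 listed cathepsin genes (horizontal axis) in mir-58 (blue), the double mutant (orange) and the quadruple mutant (red), from the authors' deposited table. Filled points were called at an adjusted p under 0.05 and open points were not; cpr-2 stands at 4.41 and 3.17 in the multiple mutants, while cpr-5 is below 0 in all 3.

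The gene cpr-1, which encodes a cathepsin B-like protease of the gut, had a positive value in each of the 3 mutants. In the authors' deposited table it stood at 0.67 in mir-58 mutants, which missed the threshold (adjusted p = 0.0562). It rose 2.03-fold in double mutants (1.02, adjusted p = 0.0353) and 2.85-fold in quadruple mutants (1.51, adjusted p = 1.67e-03) per the authors' deposited table. The value was thus higher in double mutants than in mir-58 mutants by 0.35 and higher in the quadruple than in double mutants by 0.49 on the log2 scale, differences that have no test here. Among all listed genes cpr-1 lay above 90.9% in mir-58 mutants, 85.3% in double mutants and 87.2% in quadruple mutants.

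The largest fold change of the 8 in each mutant was that of cpr-2, another cathepsin B-like gene. It rose 21.3-fold in double mutants, at a log2 fold change of 4.41 (adjusted p = 1.33e-04), and 9.0-fold in quadruple mutants, at 3.17 (adjusted p = 0.0263), per the authors' deposited table. In mir-58 the authors' deposited table gives it 0.82 with an adjusted p of 0.977. That fold change is larger than the 0.67 of cpr-1 in the same mutant, yet its adjusted p is far higher. Of the 125 genes with a larger log2 fold change than cpr-2 in double mutants, all were called and 19 had a larger adjusted p than cpr-2. In mir-58 mutants 1069 genes stood above cpr-2, of which 188 were called and 4 had a larger adjusted p. In quadruple mutants 769 genes stood above it, of which 760 were called and 28 had a larger adjusted p. The value dropped by 1.24 on the log2 scale from the double to the quadruple mutant, which was not tested.

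The cathepsin B-like gene cpr-5 was the only one of the 8 called in mir-58 mutants. It fell 1.69-fold there (-0.76, adjusted p = 5.91e-03) per the authors' deposited table. In double mutants the authors' deposited table gives the same log2 fold change of -0.76, which missed the threshold (adjusted p = 0.0795). In quadruple mutants it fell 1.91-fold (-0.93, adjusted p = 0.0270) per the authors' deposited table. The call in 2 mutants and not in double mutants therefore goes with nearly equal fold changes, and no difference between mutants was tested. Of all listed genes, 8.59% lay below cpr-5 in double mutants and 8.4% in quadruple mutants.

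The cathepsin Z-like gene cpz-2 stood at -0.24 in mir-58 mutants (adjusted p = 0.511) and fell 1.79-fold in double mutants (-0.84, adjusted p = 3.73e-03) per the authors' deposited table. It fell 1.68-fold in quadruple mutants (-0.75, adjusted p = 0.0137) per the authors' deposited table. Its paralogue by name, cpz-1, was not called, at -0.42 in mir-58 mutants, -0.08 in double mutants and 0.14 in quadruple mutants per the authors' deposited table (adjusted p = 0.183, 0.955 and 0.806). In the annotation cpz-2 overlaps gcy-34 on the opposite strand. The table does not list gcy-34, and whether reads were counted by strand is not given in the sources used here, so reads of the pair may not have been told apart.

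The remaining genes were measured without a call. The cathepsin L gene cpl-1 stood at -0.37 in mir-58 mutants, -0.38 in double mutants and -0.25 in quadruple mutants per the authors' deposited table (adjusted p = 0.304, 0.471 and 0.677). For cpr-6, a cathepsin B-like gene on chromosome X, the authors' deposited table gives -0.32, -0.24 and 0.10 (adjusted p = 0.380, 0.705 and 0.871). For cpr-4, whose product is a secreted cathepsin B-like protease known from radiation-induced signalling between cells, the authors' deposited table gives 0.16, 0.29 and 0.54 (adjusted p = 0.801, 0.747 and 0.330). A value that misses the threshold does not show that these genes did not change. The highest of the 8 was cpr-2 in every mutant, and the lowest was cpr-5 in mir-58 and quadruple mutants and cpz-2 in double mutants. In quadruple mutants the order from high to low was cpr-2, cpr-1, cpr-4, cpz-1, cpr-6, cpl-1, cpz-2 and cpr-5. Whether neighbours in this order differ cannot be tested without values per sample.

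**Figure D2:**
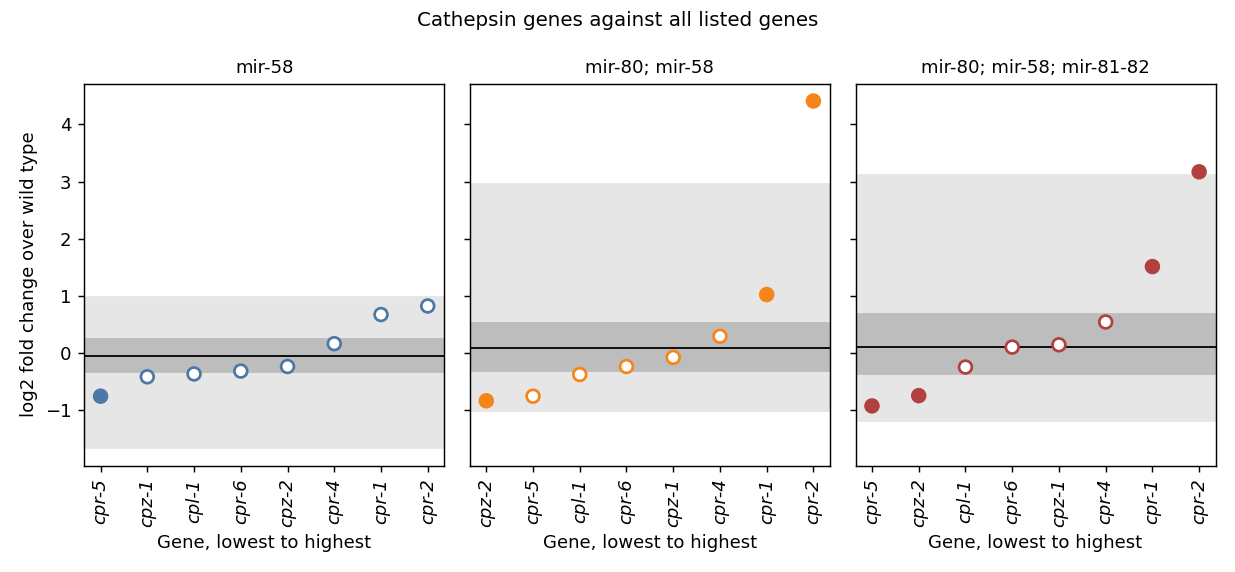
Log2 fold change over wild type (vertical axis) of the 8 cathepsin genes, ordered from lowest to highest within each mutant (horizontal axis), over bands for all 16309 listed genes. The dark band holds the middle 50% of all genes, the light band runs from the 5th to the 95th percentile and the line is the median; cpr-2 lies above the light band in double and quadruple mutants, and no gene lies below it.

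Set against all listed genes, cpr-2 was the only one of the 8 outside the range from the 5th to the 95th percentile, which ran from -1.67 to 0.98 in mir-58 mutants, from -1.02 to 2.95 in double mutants and from -1.19 to 3.11 in quadruple mutants. It lay above that range in both multiple mutants and inside it in mir-58 mutants.

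In the annotation (WBcel235), 7 of the 9 genes lie on chromosome V, cpz-1 on chromosome I and cpr-6 on chromosome X. Their coding lengths run from 918 nt for cpz-1 to 1401 nt for cpz-2, and their models have from 2 exons in cpr-4 to 8 in cpr-6. Of the 9, cpz-2 alone overlaps another protein-coding gene. None of the 9 has another of the 9 as its next protein-coding neighbour, and distances between them were not measured. The protein-coding neighbours of cpr-5 are W07B8.4 on one side and W07B8.1, now named cpr-8, on the other. Both are counted below among other papain-family genes. Calls in this run went in both directions. While cpr-5 was lower in mir-58 mutants, W07B8.4 rose there to 2.05 (adjusted p = 1.71e-04) per the authors' deposited table. It also rose in quadruple mutants (1.78, adjusted p = 0.0160) and was at 0.83 in double mutants (adjusted p = 0.526) per the authors' deposited table. On the other side W07B8.1 stood at -0.43 in mir-58 mutants and -0.83 in double mutants (adjusted p = 0.291 and 0.0505) and fell in quadruple mutants (-1.03, adjusted p = 9.53e-03) per the authors' deposited table. The genes beyond this run, Y50D4B.1 and cutl-22, were not called in any mutant. Neighbours were examined after the values were known. The other gene with a present cpr name, F57F5.1 or cpr-9, was at 0.00, 0.06 and -0.19 per the authors' deposited table, without a call in any mutant.

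**Figure D3:**
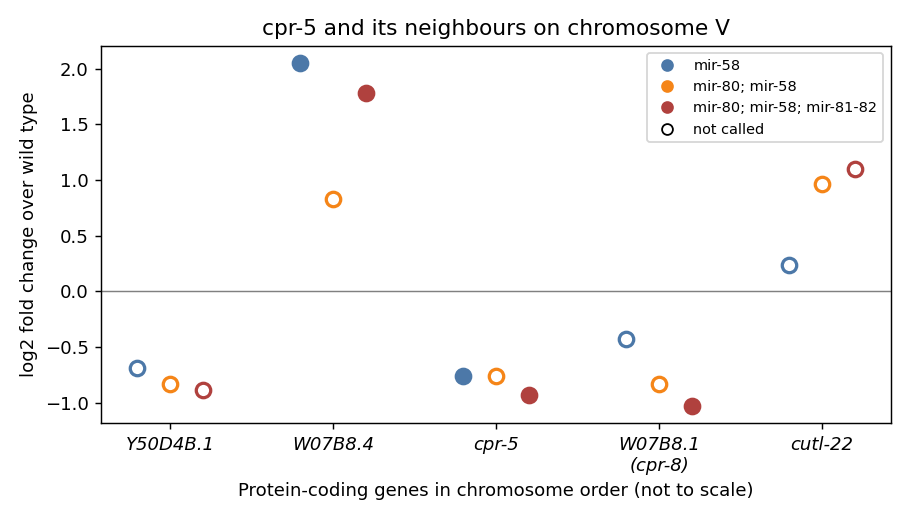
Log2 fold change over wild type (vertical axis) of cpr-5 and its protein-coding neighbours in chromosome order (horizontal axis, not to scale) in mir-58 (blue), the double mutant (orange) and the quadruple mutant (red). Filled points were called; W07B8.4 is above 0 and cpr-5 and W07B8.1 below 0 in all 3 mutants, with 2.05 against -0.76 and -0.43 in mir-58 mutants.

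Markers of intestine and sperm, whose share of the RNA could differ, were set beside these values. Yolk genes, which do not mark a separate tissue, were added. The part of these lists in the cathepsin values was not tested. Of 11 listed intestinal markers, 1 fell in mir-58 mutants, 5 in double mutants and 6 in quadruple mutants, and none rose. Their medians were -0.09, -0.71 and -0.76. The lower calls in double and quadruple mutants make 45.5% and 54.5%, against 5.9% and 9.8% of all listed genes. The shares of all listed genes called higher there were 10.5% and 14.2%. The gut genes act-5, an intestinal actin, and nhx-2, a sodium-proton exchanger, stood at -1.67 and -1.16 in quadruple mutants per the authors' deposited table, while elt-2, the GATA factor that defines the intestine, was at -0.03, -0.05 and -0.07. In both multiple mutants cpr-5, cpz-2 and cpl-1 lie inside the range of the intestinal markers. That range ran from -1.95 to 0.07 in double mutants and from -1.67 to 0.07 in quadruple mutants. The genes cpr-6 and cpz-1 lie inside it in double mutants only, and cpr-1, cpr-2 and cpr-4 above it in both. It reaches from below the 5th percentile of all listed genes (-1.02 and -1.19) to just below their median (0.08 and 0.11). A place inside it therefore does not set a gene apart. Of 9 listed sperm markers, 7 fell in mir-58 mutants and all 9 rose in both multiple mutants, at medians of -3.63, 3.66 and 3.53. In the double and quadruple mutants cpr-2 lay inside the range of the sperm markers, which ran from 2.41 to 4.50 and from 2.24 to 4.45. The 95th percentile of all listed genes, 2.95 and 3.11, also lies inside these ranges. A place inside them is therefore shared with many other genes. In mir-58 it lay outside, at 0.82 against a highest sperm marker value of -0.65. Of 5 listed yolk genes, 4 fell in mir-58 mutants, 3 rose in double mutants and 2 rose in quadruple mutants, at medians of -2.17, 1.70 and 0.89, while cpl-1, whose product processes yolk, was not called in any mutant.

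**Figure D4:**
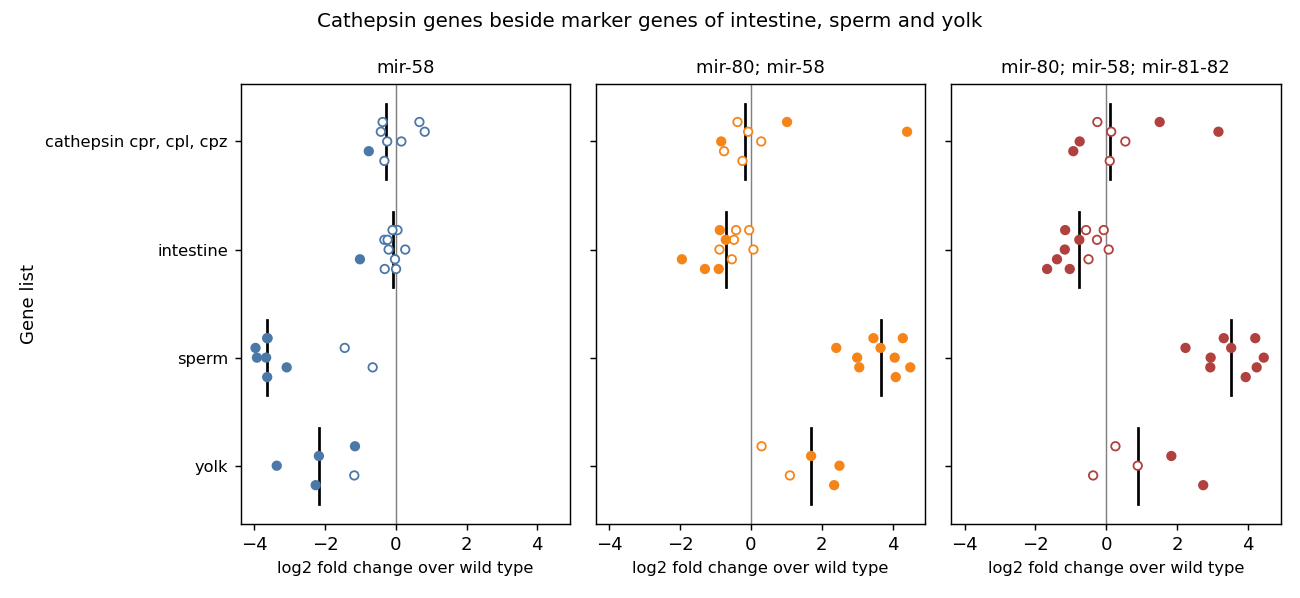
Log2 fold change over wild type (horizontal axis, the same in each panel) of the cathepsin genes and of marker genes of intestine, sperm and yolk (rows) in mir-58 mutants, the double and the quadruple mutant (panels). Each point is a gene, filled where called, and black bars are list medians; sperm markers have a median of -3.63 in mir-58 mutants and 3.66 in double mutants, whereas the cathepsin genes have medians of -0.28 and -0.16.

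By Euclidean distance over the 3 log2 fold changes, the genes most like each called cathepsin gene were sought among those called in the same mutants. For cpr-1 they were rad-26, T28F4.6 and tbc-19, at distances of 0.0447 to 0.116. For cpr-2 the nearest were F28A10.9, T23G11.10 and spp-11, a saposin-like protein gene, and these were farther off, at 0.566 to 0.918. The nearest to cpr-5 were ZK228.3, F53E10.6 and F54C4.1 (0.0831 to 0.157), from only 91 other genes called in mir-58 mutants and the quadruple mutant alone. For cpz-2 they were ttr-35, H22K11.2 and lec-6 (0.0592 to 0.0663). Both cpr-1 and cpz-2, like cpr-2, were drawn against 1714 genes called in double and quadruple mutants alone. The uncalled genes were compared with 11884 uncalled genes, and the nearest were K07C5.3 to cpr-4, Y69A2AR.21 to cpr-6, C01G10.7 to cpl-1 and K10D11.5 to cpz-1, at 0.0224 to 0.0412. Among the 8 themselves the closest pair was cpr-6 and cpz-1, at 0.193, and the farthest cpr-2 and cpr-5, at 6.78. These distances describe 3 comparisons with a common wild type and have no test.

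Genes of cystatins and serpins were examined next. Whether any of these serpins acts on the cathepsins was not examined. The cystatin gene cpi-1 fell in mir-58 mutants (-0.63, adjusted p = 0.0173) per the authors' deposited table and was at -0.58 and -0.29 in double and quadruple mutants, without a call. The other cystatin gene, cpi-2, stood at -0.15, -0.16 and 0.16 per the authors' deposited table, without a call in any mutant. Of the 6 serpin genes, which encode protease inhibitors of another family, srp-3 fell in double mutants (-1.62, adjusted p = 0.0140) and quadruple mutants (-3.3, adjusted p = 1.27e-06) and srp-8 rose in quadruple mutants (1.62, adjusted p = 0.0241) per the authors' deposited table. In quadruple mutants srp-1, srp-2, srp-6 and srp-7 were at 0.80, 0.69, 0.34 and 0.27 per the authors' deposited table, and they were not called in any mutant. Of the 8 inhibitor genes together, 1 fell in each mutant and 1 rose in quadruple mutants, at medians of 0.23, -0.01 and 0.31. A single call makes 12.5% of this list. In quadruple mutants 14.2% of all listed genes were higher and 9.8% lower.

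Other genes of the same degradative pathway were counted from lists. Of 15 listed genes on a list of other papain-family genes, drawn up from general knowledge since the annotation used here gives no family, 1 rose in mir-58 mutants, 2 fell in double mutants, and 2 rose and 4 fell in quadruple mutants, at medians of -0.13, 0.03 and 0.26. The strongest by adjusted p were R07E3.1 at -1.33 (2.14e-06), Y40H7A.10 at 1.60 (1.28e-05), W07B8.1, and R09F10.1 at -0.84 (0.0129) in quadruple mutants per the authors' deposited table. The aspartyl proteases, a separate class of lysosomal and digestive enzymes, were counted in the same way. Of 14 listed, 1 fell in mir-58 mutants, 7 in double mutants and 9 in quadruple mutants and none rose, at medians of -0.23, -0.90 and -0.96. In quadruple mutants the authors' deposited table gives asp-14 at -3.39, asp-12 at -2.72, asp-3, which encodes a lysosomal protease that takes part in necrotic cell death, at -1.44 and asp-8 at -1.27. Of these lists the aspartyl proteases share asp-1 with the intestinal markers. In quadruple mutants 13.3% of the papain-family list rose and 26.7% fell, against 14.2% and 9.8% of all listed genes. Among the aspartyl proteases 64.3% fell there. No test compared the cathepsin genes with either list.

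Calpains, the cytosolic cysteine proteases, and the legumain gene lgmn-1, which encodes an asparagine-specific lysosomal protease, gave 1 lower call in mir-58 mutants and 3 higher calls in each multiple mutant among 8 listed genes, at medians of -0.02, 0.26 and 0.76. In quadruple mutants clp-3 was at 3.31, clp-6 at 2.75 and lgmn-1, listed as T28H10.3, at 1.20 per the authors' deposited table (adjusted p = 2.05e-07, 9.91e-08 and 1.17e-05). In mir-58 clp-6 was lower, at -2.34 (adjusted p = 1.80e-03) per the authors' deposited table. The higher calls make 37.5% of this list in each multiple mutant, against 10.5% and 14.2% of all listed genes. Of 30 listed genes on a list of lysosomal hydrolases, 2 rose in mir-58 mutants, and 1 rose and 4 fell in double mutants. In quadruple mutants 5 rose (16.7%, against 14.2% of all listed genes) and 6 fell (20.0%, against 9.8%). Whether each product on this list acts in lysosomes was not checked here. Among them pho-1, an acid phosphatase gene of the gut, stood at -2.14 and pcp-2, a gene of the prolyl carboxypeptidase family, at -1.40, and the acid ceramidase genes asah-1 and asah-2 at 1.09 and 1.25, in quadruple mutants per the authors' deposited table. Of 25 listed genes of the lysosomal membrane, transport and biogenesis, 1 fell in mir-58 mutants, 1 rose and 4 fell in double mutants, and 2 rose and 4 fell in quadruple mutants. The gene lower in mir-58 mutants was ncr-2, a homologue of the human NPC1 cholesterol transporter gene, which stood at -1.88 there and was higher in both multiple mutants, at 2.75 and 2.71, per the authors' deposited table (adjusted p = 0.00119, 1.04e-10 and 2.07e-10). In quadruple mutants cln-3.1 (a homologue of human CLN3), lmp-1 (a lysosomal membrane glycoprotein gene) and laat-1 (a lysosomal exporter of lysine and arginine) were at -2.15, -1.19 and -1.15 per the authors' deposited table. The medians of the hydrolases were 0.06, -0.26 and -0.34 and those of the membrane list -0.09, -0.10 and -0.10.

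**Figure D5:**
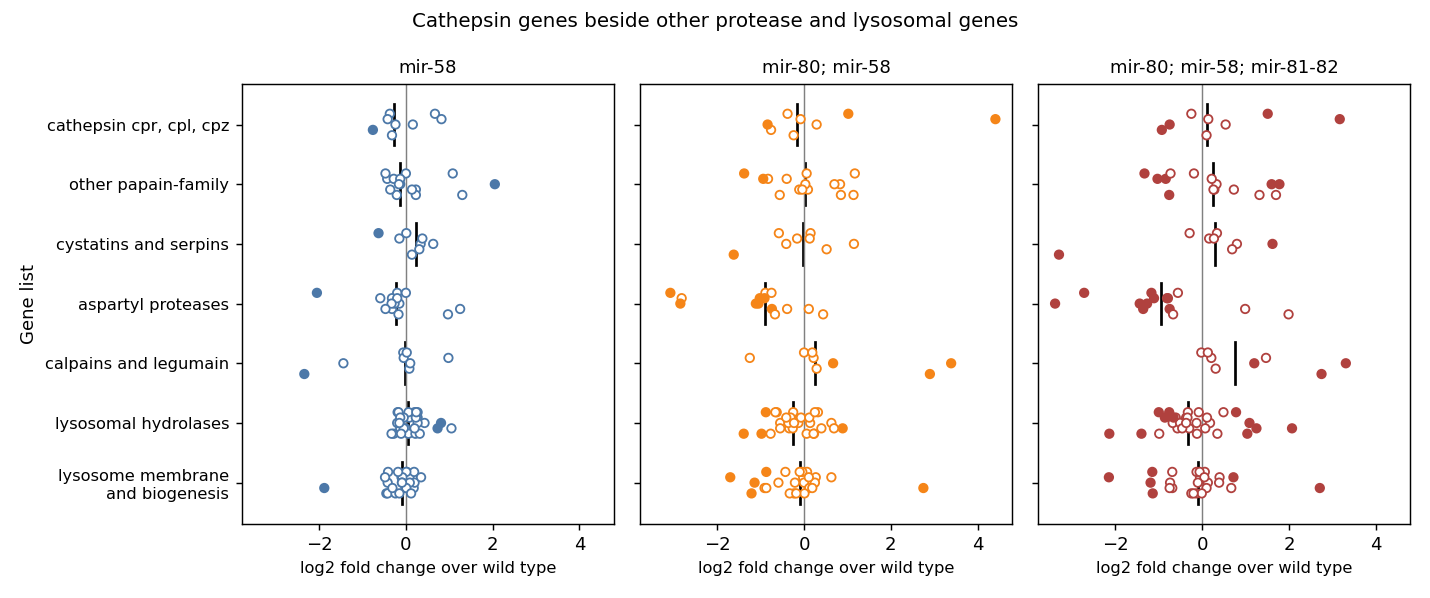
Log2 fold change over wild type (horizontal axis, the same in each panel) of the cathepsin genes and of 6 lists of proteases, inhibitors and lysosomal genes (rows) in mir-58 mutants, the double and the quadruple mutant (panels). Each point is a gene, filled where called, and black bars are list medians; in quadruple mutants the aspartyl proteases have a median of -0.96, against 0.12 for the cathepsin genes.

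The calls depended on the threshold. At an adjusted p under 0.01 the calls that remained were cpr-5 lower in mir-58 mutants, cpr-2 higher and cpz-2 lower in double mutants, and cpr-1 higher in quadruple mutants. At that threshold 0.907% of all listed genes were higher and 3.71% lower in mir-58 mutants, 8.25% and 3.49% in double mutants, and 11.1% and 6.32% in quadruple mutants. At an adjusted p under 0.1, cpr-1 was also called higher in mir-58 mutants and cpr-5 lower in double mutants. All listed genes were then called higher in 2.42% and lower in 7.73% of cases in mir-58 mutants, 12.1% and 7.66% in double mutants, and 16.7% and 11.9% in quadruple mutants. Requiring a change of at least 1.5-fold beside an adjusted p under 0.05 removed none of the calls of cathepsin genes. In double and quadruple mutants it could remove none, because every listed gene called there already changed by at least 1.5-fold. That rule called 1.60% of all listed genes higher and 5.33% lower in mir-58 mutants and, with the shares as above, 10.5% and 5.86% in double mutants and 14.2% and 9.82% in quadruple mutants.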

How the data were processed

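RNA of 12 samples was sequenced, 3 for each of 4 genotypes, and grouped by sample title. The authors deposited a table of log2 fold changes of each mutant over wild type, per the file headers. The authors also deposited an adjusted p-value for each fold change. The tool was DESeq, per the submitters' processing notes, which give no version. Aligner, read counter, build, strand setting and adjustment method are not given in the sources used here. No counts or values per sample were used, so the count-based test, replicate fits and normalisations planned at first could not be run, and the authors' calls took their place.

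Members were matched to the table by name without regard to case, and other genes also by sequence name through RefSeq names of WBcel235. Ensembl release 115 gave chromosomes, neighbours and gene models. Members, 6 pathway lists and 9 marker lists were chosen with earlier results of these data known. Named genes were all members, all inhibitors, the 3 nearest genes per member (for uncalled members the nearest is printed) and up to 4 genes per pathway list by adjusted p in the quadruple mutant; others were named after their values were seen. Code for calls and distances was tested on simulated data. Promoter, microRNA and protein sequences were not used here. Python 3.11.15, numpy 2.4.6, pandas 2.3.3 and matplotlib 3.10.9 were used.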

Additional observations from a re-analysis of the deposited data

How the results depend on the processing

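Counts of called cathepsin genes and their medians were recomputed under each alternative. At an adjusted p under 0.01, 1 gene in place of 2 was higher in double mutants, 1 in place of 2 was higher in quadruple mutants, and 0 in place of 2 were lower there. At an adjusted p under 0.1, 1 gene was higher in mir-58 mutants in place of 0, and 2 in place of 1 were lower in double mutants. Subtracting the median of all listed genes (-0.06, 0.08 and 0.11) moved the quadruple mutant's median from 0.12 to 0.010, and turned cpr-6 there from 0.10 to -0.01, a gene without a call. Counts after that subtraction are no check, because calls rest on the deposited adjusted p and the called member nearest to 0, cpz-2 in quadruple mutants, is at -0.75 in the authors' deposited table. Adding cpr-8 and cpr-9, an alternative chosen after seeing the data, moved that median to -0.045. With those centred counts set aside, the other 29 recomputed counts and medians stayed within 1.5 times or 0.1 on the log2 scale. Among them were all that required a 1.5-fold change or left out 1 member. In double and quadruple mutants the counts with a 1.5-fold change are no check either. Every listed gene called there already changed by at least 1.5-fold. No paired analysis was possible because no values per sample were used; for the same reason leaving out replicates, other normalisations and low-count filters were not run. Depth and replicate spread are unknown, so a fold change that rests on few reads cannot be told from a well-covered one.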

Other observations

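Markers of further tissues, listed to describe the animals in which the cathepsin genes were measured, gave these counts per the authors' deposited table. For comparison, 1.6%, 10.5% and 14.2% of all listed genes were called higher in mir-58, double and quadruple mutants. The shares called lower were 5.8%, 5.9% and 9.8%. Of 8 body wall muscle genes, 1 rose in mir-58 mutants, none was called in double mutants and 6 fell in quadruple mutants, at medians of -0.16, -0.42 and -0.81. Of 8 neuronal genes, 3 rose in mir-58 mutants, none in double mutants and 2 in quadruple mutants. Of 7 hypodermal genes, 2 fell in mir-58 mutants and 2 rose in each multiple mutant. The adult cuticle collagen gene col-19 stood at -3.98, 4.03 and 2.84 in mir-58, double and quadruple mutants per the authors' deposited table, called in each. The collagen gene bli-1 was called at -3.63 in mir-58 mutants and at 0.79 in double mutants, and stood at 0.61 without a call in quadruple mutants, per the authors' deposited table. The second gene that rose in quadruple mutants was nhr-23, a nuclear receptor gene of moulting, at 0.73 per the authors' deposited table. The other 5 hypodermal genes were not called in mir-58 mutants, where per the authors' deposited table they lay between -0.31 and 0.32. The calls of col-19 and bli-1 go in the directions of the sperm and yolk marker calls, lower in mir-58 mutants and higher in the multiple mutants, and their part in the cathepsin values was not tested. Of 10 oocyte and embryo genes, 1 rose and 3 fell in mir-58 mutants, 5 rose in double mutants and 4 in quadruple mutants. Of 3 genes of coelomocytes, scavenger cells rich in lysosomes, 2 fell in quadruple mutants and none was called in the others. None of 4 pharyngeal genes was called.

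Among genes on the list of other papain-family genes, Y71H2AM.25, Y71H2AR.2 and K02E7.10 have the same annotated coding length of 897 nt, and none of them was called in any mutant. In mir-58, double and quadruple mutants Y71H2AM.25 stood at 0.23, 1.14 and 1.70, Y71H2AR.2 at 1.08, 1.17 and -0.73, and K02E7.10 at -0.13, -0.40 and 0.22, per the authors' deposited table. The adjusted p in that table, at least 0.184 for these values, compare each mutant with wild type. Whether the genes differ from each other was not tested. Their sequence identity was not measured here, and how reads were shared among them was not tested.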
